A study of Mus musculus with 18 samples.

Results

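Lumbar spinal motor neurons of G93A mice were compared between 90 and 60 days of age, on 3 arrays at 90 days and 3 arrays at 60 days. These 6 arrays, 1 per animal, were chosen by their titles from the 18 arrays of the study. G93A mice carry the human SOD1 gene with the G93A substitution, and their littermates without the transgene served as controls. Laser capture took 1000 motor neurons of each animal, per the labels' protocols, from 10 µm lumbar sections stained with toluidine blue. The sources used here name neither sex, background strain and transgene copy number nor the promoter that drives it. The groups were G93A at 90 days, G93A at 60 days, and, for setting the age step of the mutant beside that of normal animals, control at 90 days and control at 60 days, with 3 animals each. G93A at 120 days and control at 120 days, also with 3 animals each, were used only to show where the same genes stood later. The labels do not say whether animals of different ages were littermates of each other. The captured pools hold whatever RNA lay in the cut area, and fewer cells of a type and less RNA per cell cannot be told apart.

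Mutant SOD1 is a cause of inherited amyotrophic lateral sclerosis, in which upper and lower motor neurons degenerate. Motor neurons are large cells with long axons filled with neurofilaments, and they depend on axonal transport, mitochondrial ATP and the clearance of misfolded protein through chaperones, the proteasome and lysosomes. In G93A mice 60 days is usually taken as a presymptomatic age and 90 days as an age near the onset of motor signs, so the comparison asks what the transcripts of surviving lumbar motor neurons did over that interval within the mutant.

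No transcript passed the test between the ages in G93A motor neurons, and the differences are described here by function. Subunits of the proteasome, enzymes of the TCA cycle and of glycolysis, lysosomal enzymes and subunits of the vacuolar proton pump mostly had more signal at 90 than at 60 days, while immediate early genes and chromatin remodellers mostly had less. Among single genes, the intermediate filament genes Prph and Nefh had 2.88 and 2.52 times the signal at 90 days, and Jarid2, Rbfox1 and Camkk2 were low at 90 days. Of the genes whose G93A values did not overlap between the ages, 74.0% of those higher at 90 days were also higher in 90-day controls, against 45.8% of all genes, and the test of the difference between the age steps of the genotypes called 0 genes.

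By limma, fitted over all 18 arrays, 0 of 16565 probe sets (0%) had an adjusted p below 0.05 for G93A at 90 against 60 days. At an unadjusted p below 0.05 there were 909 (5.49%), 441 higher and 468 lower at 90 days, where 828 are expected by chance. The lowest adjusted p was 0.545. The median standard error of a log2 difference was 0.69, so that with 3 arrays a group only large differences could have passed. With 1 probe set per gene, 704 of 10051 genes (7%) had all 3 values of 90 days above all 3 of 60 days, and 685 (6.82%) had them all below. If the order of the values were random, 10% of genes would have no overlap, both directions together. The median log2 difference over all genes was -0.04, and differences of gene groups are read against it. In the same fit, 266 probe sets (1.61%) were called in controls between 60 and 90 days and 1267 (7.65%) in G93A motor neurons between 90 and 120 days. The control count was 32 with the level of the hybridization controls as a covariate, 13 with that of 18S rRNA and 28 without a trend in the variance. Control calls of single genes named below come from the fit without covariates. When 1 control array was left out the control count was 26, 80 or 306 without replicate 1, 2 or 3 of 90 days, and 332, 211 or 78 without replicate 1, 2 or 3 of 60 days.

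The arrays of the 60-day group were less alike than those of the 90-day group. Across the tested probe sets the 3 arrays of 90 days correlated at 0.803 to 0.838 with each other, and the 3 arrays of 60 days at 0.744 to 0.803. Replicate 1 of 60 days correlated at 0.821 to 0.849 with the arrays of 90 days and at 0.744 and 0.803 with its own group. With the 90-day controls it correlated at 0.864 for replicate 2 and at 0.711 and 0.717 for replicates 1 and 3. Its mean log2 level of the hybridization controls was 7.745. That level was 8.395 on replicate 2 of the 90-day controls and 8.96 to 9.33 on the G93A arrays of 90 days. The part of age or array quality in this closeness was not tested. Replicate 3 of 60 days was the least like the others, at 0.696 to 0.752. The 18S rRNA control probe sets had a mean log2 level of 7.78, 8.79 and 8.37 in the older G93A animals and of 8.49, 10.15 and 10.74 in the younger ones, with replicate 1 of 60 days inside the range of the older group (exact permutation test, two-sided, p = 0.2, where 3 against 3 cannot go below 0.1). The 18S level was also lower in the older controls, 9.65 ± 0.56 at 90 days and 10.67 ± 0.46 at 60 days (SD, n = 3 each, exact permutation p = 0.2). In controls the level of the hybridization controls was 9.83 ± 1.27 at 90 days and 11.15 ± 0.40 at 60 days (SD, n = 3 each, exact permutation p = 0.2). In G93A that level was 9.09 ± 0.20 at 90 days and 9.47 ± 1.53 at 60 days (SD, n = 3 each, exact permutation p = 0.7), and the Gapdh 3'/5' signal ratio, a measure of RNA integrity, was 4.39 ± 0.30 at 90 days and 4.14 ± 0.43 at 60 days on the log2 scale (SD, n = 3 each, exact permutation p = 0.5). With the 18S level of each array as a covariate in the fit, the G93A difference of 66 of the 119 genes named for this step was more than 1.5 times smaller or of the opposite sign, which holds for 6 of the 15 leading genes in each direction. Values from that fit are printed below for some genes only, and a gene without one may have shifted as much. When 1 of the 6 arrays was left out, 32 of the 119 had such a value in at least 1 of the fits. Of 47 gene lists, 20 had a median of 1 sign under all 17 alternative settings and 27 had medians of both signs.

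**Figure D1:**
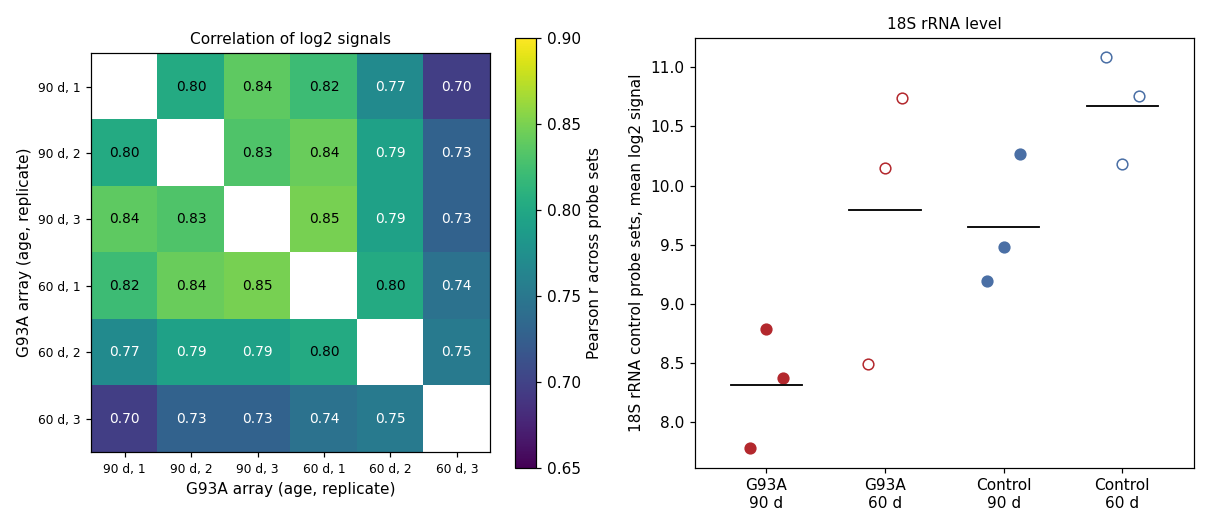
The left panel gives the Pearson correlation of the log2 signals across tested probe sets for each pair of the 6 G93A arrays (age in days, replicate), and the right panel the mean log2 signal of the 18S rRNA control probe sets on each array, with black bars at the group means. Replicate 1 of 60 days correlates at 0.821 to 0.849 with the arrays of 90 days, and its 18S level of 8.49 lies among theirs.

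The label of motor neurons was checked against 15 marker genes, of which 13 were tested. Calcb, a calcitonin gene-related peptide, and Prph, the filament protein peripherin, were at percentiles 98 and 90 of all probe sets on the G93A arrays, and the homeobox genes Isl2 and Mnx1 at percentiles 83 and 55. The genes of the acetylcholine vesicle transporter, Slc18a3, and of the choline transporter, Slc5a7, were at percentiles 29 and 21, did not pass the filter on low signals and were not tested. Markers of other cells were measured at very unequal levels. Of the oligodendrocyte markers Mbp was at percentile 100, and Cnp, Mog and Gsn at percentiles 57, 41 and 39. Of the microglial markers Csf1r was at percentile 98, and Cd68, Fcer1g, C1qb and Trem2 at percentiles 49, 30, 28 and 26. Mbp, the myelin basic protein, had signals of 3921.6 to 7455.3 at 90 days and of 4725.1 to 8395.4 at 60 days, and Csf1r, a receptor of microglia, of 754.8 to 1908.5 at 90 days and of 1197.1 to 1953.1 at 60 days.

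Of the motor neuron markers 5 of 13 tested genes had a positive and the others a negative difference, with a median of -0.26, also negative under both scaling alternatives, quantile normalization and centring of each array on its median (-0.20 and -0.12). Their summed signal was 1976 to 4549 at 90 days and 1418 to 3501 at 60 days. The list's median was 0.42 in the fit with the 18S level of each array as a covariate, so that its direction depends on that setting. Calcb had signals of 2636.1, 922 and 1754.5 at 90 days against 498.8, 2145.5 and 334.5 at 60 days, a log2 difference of 1.19 ± 0.62. Isl1, a homeobox factor of motor neurons, had 38.4, 28.3 and 30.9 against 34.2, 75.2 and 54.4 (-0.69 ± 0.61), and Gfra1, a co-receptor of glial cell line-derived neurotrophic factor, a difference of -0.99 ± 0.85 (0.08 with the 18S level in the fit). In all 3 genes the ages overlapped, and the single further probe set of Isl1 had the opposite sign.

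The intermediate filament genes of the axon had differences of both signs. Prph had signals of 474.1, 368.4 and 445.6 at 90 days against 101.6, 281.5 and 113.7 at 60 days. The ages did not overlap, and the log2 difference was 1.53 ± 0.42 (limma adjusted p = 0.679). Of 3 further probe sets for Prph, 1 had the opposite sign. Nefh, the heavy neurofilament chain, had 2694.7, 1924.4 and 3470.9 against 779.7, 1581.2 and 908.4, also without overlap (1.34 ± 0.41, limma adjusted p = 0.706). Both genes were lowest on replicates 1 and 3 of 60 days and closer to the older animals on replicate 2. Nefl, the light chain and one of the strongest signals on these arrays, had 10526.6, 11327.5 and 11638.8 against 6044.4, 16204.4 and 15296.6, a difference of -0.04 ± 0.48, whose sign turned under both scaling alternatives. Nefm, the medium chain, differed by 0.24 ± 0.66, and Ina, the alpha-internexin gene, by -0.73 ± 0.34 with overlapping ages. Of 2 further probe sets for Ina, 1 had the opposite sign. In controls the steps were 1.29 ± 0.42 for Prph, 0.71 ± 0.41 for Nefh and 1.29 ± 0.66 for Nefm, none of which passed the test.

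The mouse Sod1 gene was measured by 2 tested probe sets, and the sources used here do not say whether they detect RNA of the human transgene. The probe set with the higher signal had 261.7, 638.7 and 622.3 at 90 days against 418.1, 206 and 415.1 at 60 days. The ages overlapped, with a difference of 0.51 ± 0.57, and the second probe set had the opposite sign. Of 15 tested mouse orthologues of genes mutated in ALS, 7 had a positive difference and the median was -0.16, which was 0.11 after quantile normalization and 0.12 without replicate 1 of 60 days. Fig4, a phosphoinositide phosphatase, had 0.69 ± 0.33 with overlapping ages. The number of orthologues without overlap was 0 higher and 2 lower, beside 7% and 6.82% of all genes.

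The genes with more signal at 90 days are given first, as the 15 of smallest p whose ages did not overlap and whose difference was 1.5-fold or more. None of them passed the test, so the values describe these animals. Pfkp, the platelet form of phosphofructokinase and a control point of glycolysis, had signals of 941.2, 726.8 and 802 at 90 days against 434.3, 346.9 and 270.7 at 60 days, a log2 difference of 1.25 ± 0.29 (limma adjusted p = 0.545). Prdx2, a peroxiredoxin that removes hydrogen peroxide, had 1426.2, 1093.5 and 1340.1 against 746.9, 533.2 and 358.7 (1.29 ± 0.30). Tpt1, the translationally controlled tumour protein, had 6193.5, 4827.8 and 6273.9 against 3627, 1967.8 and 1615.5 (1.34 ± 0.36). These 3 genes are strongly expressed, and in each of them replicate 1 of 60 days lay closest to the older group.

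Mrps14, a protein of the small mitochondrial ribosomal subunit, had 1523.9, 454.6 and 975 at 90 days against 405.1, 234.6 and 128.5 at 60 days, the smallest p of the 15 genes (1.93 ± 0.41, unadjusted p = 8.31e-05). Ndufs3, a core subunit of respiratory complex I, had 490.8, 396.4 and 524 against 189.7, 239.7 and 163.6 (1.26 ± 0.36). Ap2b1, a subunit of the AP-2 clathrin adaptor, had 306.4, 162.4 and 241.3 against 102.7, 67.9 and 31.3 (1.93 ± 0.45). Vps28 of the ESCRT-I complex had 649.6, 479.8 and 705.4 against 281.8, 154 and 92.5 (1.93 ± 0.47), and Snf8 of ESCRT-II had 166.7, 163.8 and 161.6 against 96, 16.1 and 7.1. The log2 difference of Snf8, 2.88 ± 0.78, rests on the low values of replicates 2 and 3 of 60 days, and it was 2.04 with a pseudocount of 16, as log2(signal + 16), and 0.93 with the 18S level in the fit.

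Psmb5, the proteasome subunit with chymotrypsin-like activity, had 438.6, 253.6 and 354.4 at 90 days against 170.2, 170.6 and 77.3 at 60 days (1.38 ± 0.35). Asb13, a substrate adaptor of a ubiquitin ligase, had a difference of 1.25 ± 0.37, and Urm1, a ubiquitin-like modifier that also serves tRNA thiolation, one of 1.66 ± 0.48. Nkiras1, a Ras-like protein that binds inhibitors of NF-kappaB, had 1561.5, 1005.3 and 1497.9 against 502.1, 520.5 and 397.9 (1.5 ± 0.39), and Acyp1, an acylphosphatase, had 329.2, 296.7 and 339.6 against 134.7, 137.5 and 115.8 (1.32 ± 0.38). The 3 animals of 60 days lay close together for these last 2 genes. Prss35, a relative of serine proteases, had only 95.6, 43.6 and 45 against 15.2, 1.3 and 2.2, at percentile 3 of the tested genes, and its log2 difference of 4.03 ± 1.18 was 1.79 with the pseudocount.

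**Figure D2:**
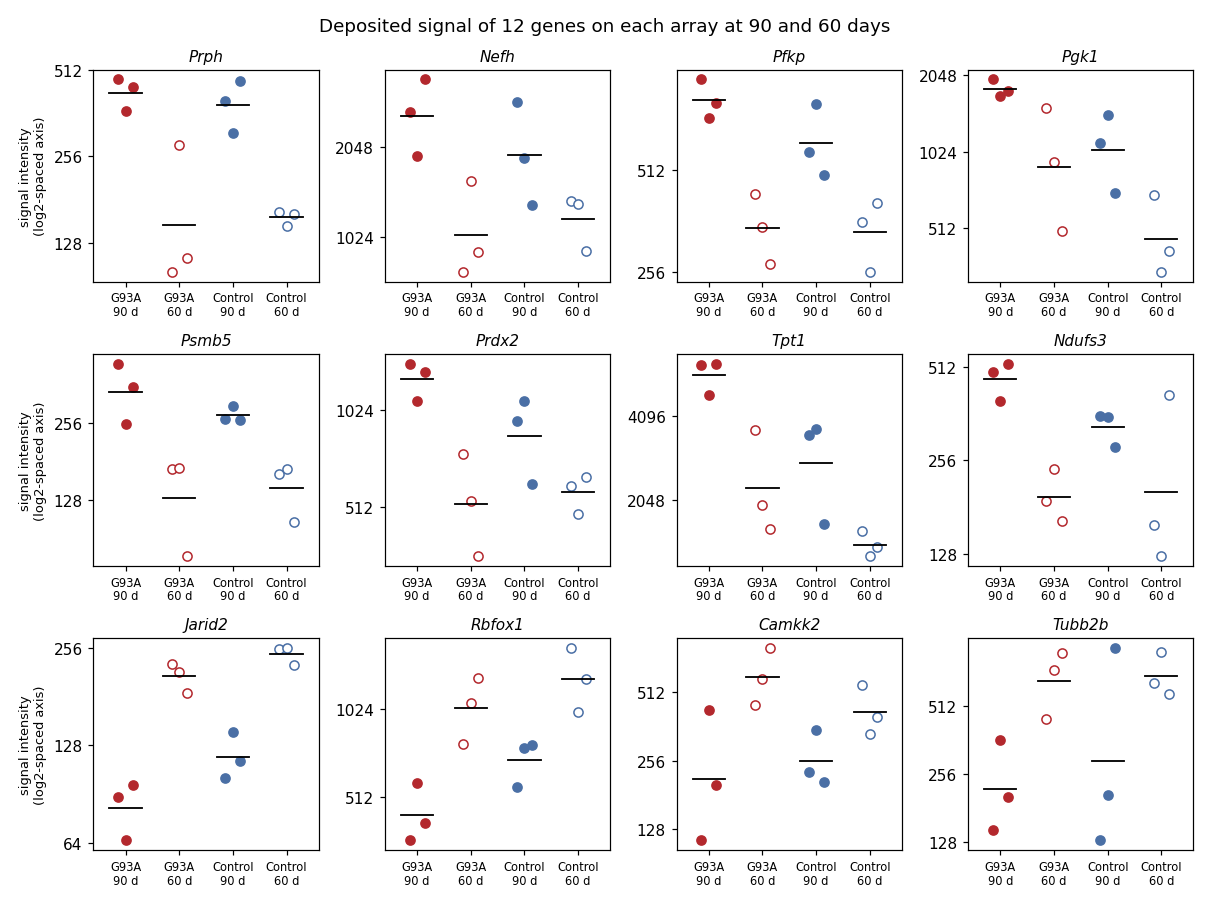
Each point is the deposited signal of 1 array, on a log2-spaced axis, for 12 genes in G93A motor neurons at 90 and 60 days and in control motor neurons at 90 and 60 days, and black bars are geometric means. In G93A the ages do not overlap in any of the 12 panels, with Prph at 368.4 to 474.1 at 90 days and 101.6 to 281.5 at 60 days and Jarid2 at 65.1 to 96.2 at 90 days and 186.3 to 228.4 at 60 days.

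The 15 genes with less signal at 90 days were chosen in the same way. Jarid2, a subunit of the Polycomb repressive complex PRC2, had signals of 88.8, 65.1 and 96.2 at 90 days against 228.4, 215.8 and 186.3 at 60 days (-1.35 ± 0.33, limma adjusted p = 0.545). Rbfox1, a neuronal splicing factor, had 362.9, 572.3 and 415.8 against 777.5, 1074 and 1299.6 (-1.22 ± 0.30). Nfic, a transcription factor of the nuclear factor I family, had 134.9, 227.2 and 127.3 against 308.6, 273.1 and 577.4 (-1.21 ± 0.35), and 2 of its 3 further probe sets had the opposite sign. Cnot3, a subunit of the CCR4-NOT complex that shortens poly(A) tails, had 4.5, 12.5 and 24.6 against 70.1, 84.2 and 83.1 (-2.82 ± 0.64, and -1.72 with the pseudocount). Its 60-day values were close together, and its 90-day values were among the low signals of these arrays.

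Camkk2, a kinase that activates calmodulin-dependent kinases and AMPK, had 114.6, 425.3 and 200.9 at 90 days against 447.5, 583.5 and 799.8 at 60 days (-1.47 ± 0.38). Of 2 further probe sets for Camkk2, 1 had the opposite sign. Gprc5b, an orphan receptor, had 48.9, 131.3 and 105.4 against 296.4, 196.2 and 236.2 (-1.45 ± 0.40), and Psd, an exchange factor of the small GTPase ARF6, had 5.1, 10.8 and 7.7 against 49.1, 55.3 and 138.2 (-3.26 ± 0.79, and -1.91 with the pseudocount). Myrf, the transcription factor that drives myelin genes in oligodendrocytes, had 106.5, 150.3 and 99.4 against 421, 339.6 and 341.8 (-1.65 ± 0.46). Reep3, a protein that shapes the endoplasmic reticulum, had 2.5, 132.8 and 81.2 against 225.6, 390.5 and 320.1, and without replicate 1 of 90 days its difference of -3.34 ± 0.90 was -1.55. Ankrd24 (-1.89 ± 0.49), Ammecr1l (-1.51 ± 0.42) and Sfxn1, a mitochondrial serine carrier (-1.68 ± 0.49), were also among the 15. Mrps5 (-4.37), Rnase2b (-3.46) and Col20a1 (-3.58) had signals under 8 on all 3 arrays of 90 days, and with the pseudocount they had -1.92, -1.48 and -1.70. The other probe set of Mrps5 and that of Sfxn1 had the opposite sign, as did 1 of 2 further probe sets of Ammecr1l.

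All 30 of these genes kept their sign under both scaling alternatives and when the 18S level, the Gapdh ratio or the level of the hybridization controls was a covariate. Leaving out 1 array could not turn a sign, since genes were chosen for ages without overlap. None of the 30 passed the test under any alternative in which it was tested. Of the 15 genes with more signal at 90 days, 14 also had a positive difference in controls, and of the 15 with less signal, 14 had a negative one. The exceptions were Prss35 (-0.65 ± 1.18 in controls) and Ammecr1l (0.03 ± 0.42 in controls). Mrps14 was the only one of the 30 called in controls (1.57 ± 0.41, limma adjusted p = 0.0497).

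Gene groups were read from 47 lists, and 0 members of any list passed the test in G93A motor neurons. The proteasome, the barrel-shaped protease that degrades ubiquitin-tagged proteins, had the highest median of all lists. Of 42 tested subunit genes 36 had more signal at 90 days, with a median log2 difference of 0.59, against a median of -0.04 over all genes. In 17 subunits all animals of 90 days lay above all of 60 days and in 0 below, beside 7% and 6.82% of all genes. At an unadjusted p below 0.05 there were 5 higher and 0 lower, beside 2.84% and 2.44% of all genes. The level of the list, which is the mean log2 signal of its members minus the mean of all genes on the same array, was 1.57, 1.26 and 1.45 at 90 days and 0.95, 1.05 and 0.36 at 60 days, without overlap and with replicate 3 of 60 days lowest.

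Besides Psmb5, the core subunit gene Psmb4 had signals of 350.5, 214.1 and 241.8 at 90 days against 203.7, 107.4 and 84.6 at 60 days (1.10 ± 0.49). Psmd12 of the regulatory particle had 589.2, 416.1 and 446.7 against 306.4, 276.3 and 241.8 (0.81 ± 0.33), and the ATPase subunit Psmc2 had a difference of 1.06 ± 0.44 with overlap. With the 18S level in the fit Psmb4 had 0.31, Psmd12 0.58 and Psmc2 0.21. The median of the list was 0.70 without replicate 1 of 60 days, 0.48 without replicate 3 and 0.43 with the 18S level in the fit. In controls it was 0.75, with 4 subunits called higher, where 1.36% of all probe sets were, among them Psmb4 (2.00 ± 0.49, limma adjusted p = 0.0378). The enzymes that attach and remove ubiquitin had a median of 0.08 with 42 of 71 genes above 0, and Ube2e2, a ubiquitin-conjugating enzyme, had 0.87 ± 0.33.

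Genes of carbohydrate oxidation had the next highest medians. Of 21 tested genes of pyruvate dehydrogenase and the TCA cycle 16 had more signal at 90 days, and the median was 0.53. Without overlap 7 were higher and 1 lower, beside 7% and 6.82% of all genes. Pdhb, a subunit of pyruvate dehydrogenase, had signals of 1345.6, 1160.2 and 1244.3 at 90 days against 821, 1006 and 566 at 60 days (0.68 ± 0.29). Mdh1, the cytosolic malate dehydrogenase of the malate-aspartate shuttle, had 1085.3, 686 and 768.2 against 607.1, 318.1 and 253.2 (1.18 ± 0.51), with 1 of 2 further probe sets of opposite sign. Suclg1, of succinyl-CoA ligase, had 557.9, 363.1 and 444.3 against 292.9, 187.5 and 183 (1.05 ± 0.47). For all 3 the ages did not overlap and replicate 3 of 60 days was lowest. Sdhd, an anchor subunit of succinate dehydrogenase, had 98.6, 144.6 and 163.6 against 65.4, 8.6 and 7.1, and its difference of 3.06 ± 0.96 was 2.05 with the pseudocount. The median of the list was 0.73 without replicate 1 of 60 days, 0.27 without replicate 3 and 0.28 with the 18S level in the fit. In controls it was 0.44, and 3 members were called higher and 0 lower, where 1.36% and 0.248% of all probe sets were. Among them were Mdh1 (2.61 ± 0.51, limma adjusted p = 0.0111) and Pdhb (1.14 ± 0.29, limma adjusted p = 0.0453).

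Of 13 tested glycolytic enzymes 10 had more signal at 90 days and 5 did so without overlap, beside 7% of all genes. Their median was 0.44, against 0.02 in controls. Pgk1, phosphoglycerate kinase, had signals of 1971.4, 1691 and 1776.9 at 90 days against 1514.5, 934.3 and 498.9 at 60 days (1.02 ± 0.39). Its difference was 0.22 with the 18S level in the fit. Tpi1, triosephosphate isomerase, had 1557.7, 1366.3 and 1560.2 against 949.7, 1350.2 and 737.9 (0.60 ± 0.32). The 3 animals of 90 days were close together for both enzymes, and the animals of 60 days were spread widely. Ldha, lactate dehydrogenase A, had 0.97 ± 0.49 with overlap, and -0.10 with the 18S level in the fit. With that level the list's median was 0.10. The Gapdh gene has no tested value here. It has 3 probe sets with 1 symbol, and none was among those tested, which leave out control probe sets such as those of the Gapdh 3'/5' ratio.

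Fatty acid oxidation enzymes had 15 of 17 genes above 0, 4 without overlap (beside 7% of all genes), and a median of 0.35. Acadvl, the very long chain acyl-CoA dehydrogenase, had 332.8, 241.1 and 328.3 at 90 days against 142.3, 154.6 and 124.6 at 60 days (1.09 ± 0.42), and Hadhb, of the mitochondrial trifunctional protein, had 437.7, 378 and 284.6 against 261.4, 211.7 and 192.8 (0.71 ± 0.32). The 60-day values of both were close together, and the single further probe set of Hadhb had the opposite sign.

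The respiratory chain lists had medians nearer to that of all genes. Complex I had a median of 0.05 with 22 of 34 genes above 0, which was -0.09 without replicate 1 of 60 days and 0.26 with the 18S level in the fit. Complexes III and IV with the ATP synthase had a median of 0.07 with 25 of 40 above 0, and 0.32 with the 18S level. Single subunits had large values: Ndufa9 had signals of 1422.6, 727.7 and 1048.3 at 90 days against 706.8, 236.4 and 218.6 at 60 days (1.63 ± 0.50), and Ndufa8 had 1286, 808.6 and 1082.4 against 623.6, 275.3 and 325.7 (1.44 ± 0.45). Ndufa3, also of complex I, had the opposite sign (-0.86 ± 0.33, with overlap). Cox5b, a nuclear-coded subunit of cytochrome oxidase, had 669, 615.2 and 662.2 against 333.3, 375.3 and 329.8 (0.91 ± 0.30), although 3 of its 5 further probe sets had the opposite sign. The ATP synthase genes Atp5c1 (1.12 ± 0.44), Atp5g3 (0.91 ± 0.36) and Atp5j (0.87 ± 0.31) had values of 90 days above all those of 60 days. With the 18S level in the fit their differences were 0.13, 0.36 and 0.34, and that of Ndufa9 was 0.38. Atp5c1 changed in controls (2.40 ± 0.44, limma adjusted p = 0.00749). Mitochondrial ribosomal proteins had 50 of 73 genes above 0 and a median of 0.19, which was 0.09 without replicate 1 of 60 days, with Mrpl15 at 1.54 ± 0.58 and Mrpl37 at -2.85 ± 1.07 (percentile 5, and -1.27 with the pseudocount).

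Lysosomal genes mostly had more signal at 90 days too. Of 24 tested cathepsins and lysosomal enzymes 18 had more signal at 90 days, with a median of 0.43. Without overlap 5 were higher and 0 lower, beside 7% and 6.82% of all genes. Ctss, cathepsin S of microglia and macrophages, had signals of 693.8, 1248.6 and 867.2 at 90 days against 701.4, 367.1 and 450.6 at 60 days (0.90 ± 0.35, with overlap). Ctsl, cathepsin L, had 259.2, 302.2 and 306.3 against 108.4, 191.7 and 163.2 (0.94 ± 0.45, without overlap), and Lamp1, a membrane protein of lysosomes, 0.60 ± 0.28. With the 18S level in the fit Ctss had 0.47, Ctsl 0.93 and Lamp1 0.10. The vacuolar proton pump, which acidifies lysosomes and synaptic vesicles, had 14 of 19 genes above 0, 4 without overlap (beside 7% of all genes), and a median of 0.42. Atp6v0d1 of its membrane sector had 773.4, 503 and 618.3 against 455.1, 219 and 183.4 (1.24 ± 0.39, and 0.32 with the 18S level in the fit). The accessory subunit Atp6ap1 had 0.98 ± 0.54 (0.08 with the 18S level in the fit). With the 18S level in the fit the medians were 0.11 for the enzymes and 0.18 for the pump, and the pump had 0.18 without replicate 3 of 60 days. Core genes of autophagy had a median of 0.04, and 2 of them lay low at 90 days: Wipi1, which binds forming autophagosomes (106.2, 153 and 201.7 at 90 days against 265.7, 453.7 and 365.9 at 60 days, -1.25 ± 0.40), and Atg13 of the ULK1 kinase complex (-0.86 ± 0.32). Of further probe sets of these genes, 2 of 3 for Wipi1 and the single one for Atg13 had the opposite sign.

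Chaperones and co-chaperones had 45 of 69 genes above 0, 15 without overlap higher and 3 lower, beside 7% and 6.82% of all genes, and a median of 0.28. Dnajb4, an HSP40 co-chaperone, had signals of 634.4, 418 and 484.1 at 90 days against 341.8, 170.8 and 131 at 60 days (1.36 ± 0.46), and Dnajb1 had 1346, 1308.7 and 1237.3 against 883.3, 954.5 and 414.1 (0.88 ± 0.36). With the 18S level in the fit Dnajb4 had 0.53 and Dnajb1 0.31. Hspa8, the constitutive HSP70 chaperone, had 711.9, 872.6 and 985.1 against 312.2, 587.9 and 471 (0.94 ± 0.38), with 2 of 3 further probe sets of opposite sign. None of these ages overlapped. Hspb3, a small heat shock protein, had 2.40 ± 0.94 at low signals (1.24 with the pseudocount). The median of the list was 0.39 without replicate 1 of 60 days, 0.14 without replicate 3 and 0.17 with the 18S level. In controls the median was 0.47, and 5 members were called higher and 0 lower, where 1.36% and 0.248% of all probe sets were. Among them was Dnajb1 (1.65 ± 0.36, limma adjusted p = 0.0210). Genes of endoplasmic reticulum folding and stress had a median of 0.34, and of 0.17 without replicate 2 of 60 days, with Dnajb9, an ER co-chaperone, at 0.97 ± 0.47 and the calcium-binding chaperone Calr, calreticulin, at -0.60 ± 0.25, both without overlap.

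Antioxidant enzymes had 22 of 29 genes above 0 and a median of 0.29, with 2 higher and 1 lower without overlap, counts at or below the shares of all genes (7% and 6.82%). Beside Prdx2, Gpx1, a glutathione peroxidase, had 0.89 ± 0.37 with overlap. Metallothioneins, which bind zinc and copper, had 0 of 3 above 0, with Mt1 at 758.8, 1003.1 and 763.4 at 90 days against 1039.3, 820 and 1244 at 60 days (-0.29 ± 0.36) and Mt2 at -0.17 ± 0.40. Those ages overlapped, and the sign of Mt2 turned in the fit with the 18S level (0.04).

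The retrograde transport machinery of the axon had a median of 0.30, with 11 of 18 dynein and dynactin genes above 0 and 4 without overlap (beside 7% of all genes). Without replicate 3 of 60 days the median was 0.11. Dynll2, a dynein light chain, had signals of 902.3, 669.7 and 770.5 at 90 days against 435.1, 299.5 and 413.9 at 60 days (1.04 ± 0.33). Dctn3 of dynactin had 917.4, 390.4 and 494.4 against 301.2, 230.6 and 139 (1.40 ± 0.52), and Pafah1b1, the dynein regulator LIS1, had 503.2, 478 and 518.1 against 286.6, 326.9 and 176.1 (0.97 ± 0.38). All 3 had no overlap between the ages. Anterograde kinesin genes had a median of -0.23, with 11 of 24 above 0, and of -0.01 without replicate 2 of 60 days, and Klc1, a kinesin light chain, had 0.76 ± 0.41. The difference between these 2 lists was not tested. Tubulins, microtubule-associated proteins and stathmins had a median of -0.10, and of 0.09 and 0.05 under the scaling alternatives. Tubb2b, a neuronal beta-tubulin, had 144.8, 361.3 and 203.2 against 447.2, 737.8 and 877.6 (-1.59 ± 0.51), and Stmn1, stathmin 1, 3463.1, 2774.7 and 4374.6 against 2532.7, 1913.1 and 1814.9 (0.75 ± 0.35).

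**Figure D3:**
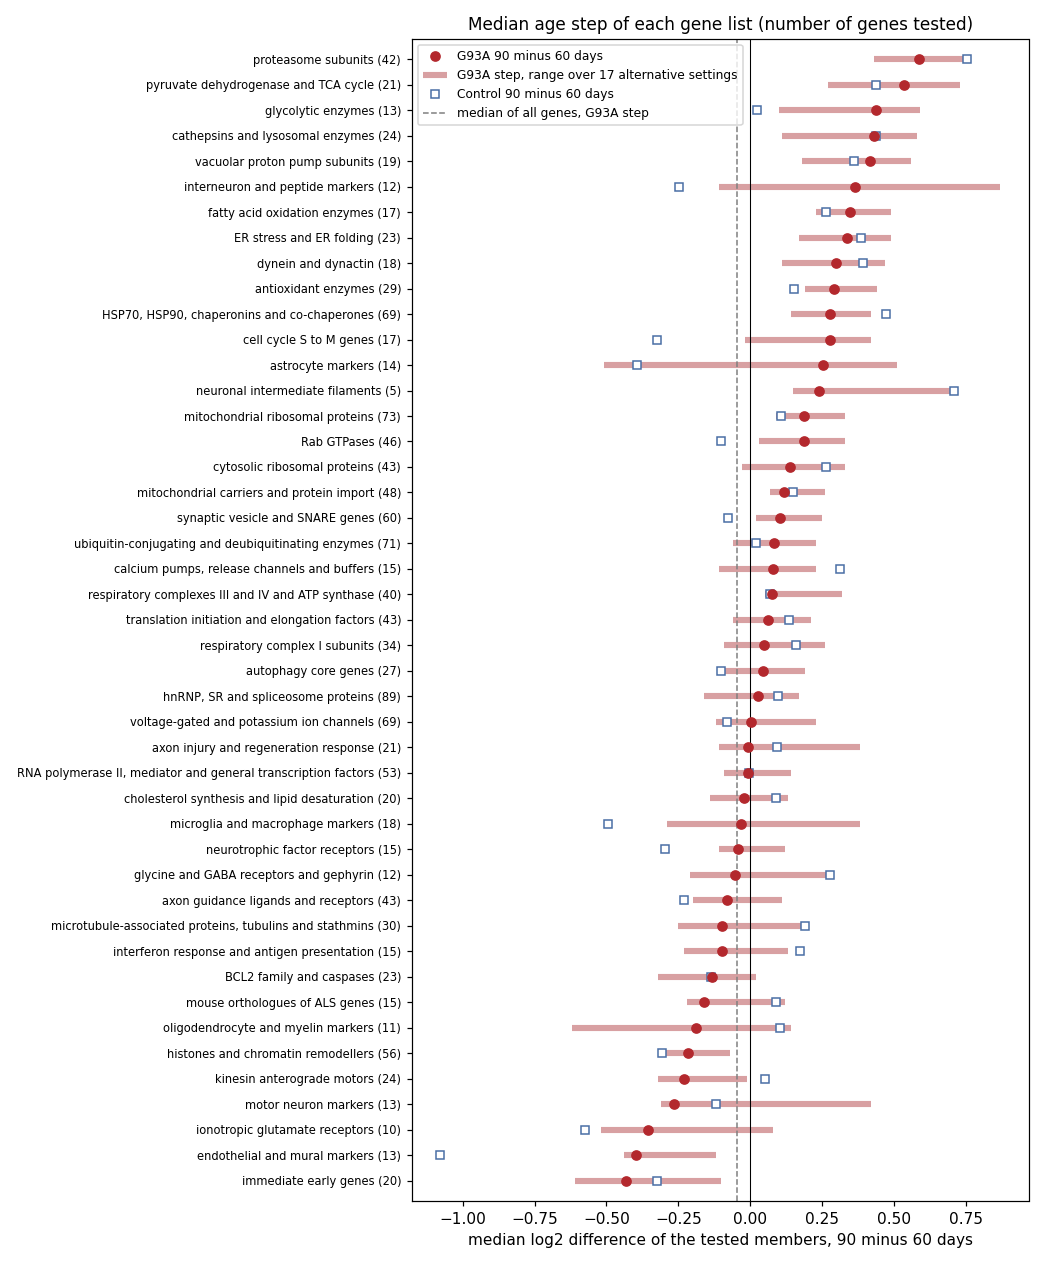
For each of 45 gene lists with at least 5 tested genes (number in brackets), the red point is the median log2 difference of G93A at 90 against 60 days, the bar its range over 17 alternative settings, and the open square the median of the same step in controls. The proteasome is at the top with 0.59 in G93A and 0.75 in controls, the immediate early genes at the bottom with -0.43 and -0.33, and the dashed line marks the median of all genes at -0.04.

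Lists with less signal at 90 days were fewer. Immediate early genes, which neurons induce on activity or stress, had 4 of 20 genes above 0 and a median of -0.43. Without overlap 1 was higher and 2 were lower, beside 7% and 6.82% of all genes. At an unadjusted p below 0.05 there were 0 in either direction. Jun had signals of 94.3, 94.4 and 69.9 at 90 days against 128.5, 122 and 159.6 at 60 days (-0.67 ± 0.39, without overlap), and Nr4a3, an orphan nuclear receptor, had -1.96 ± 1.05 at low signals (-1.13 with the pseudocount). The list's median was -0.10 with the 18S level in the fit and -0.17 without replicate 1 of 90 days. Histones and chromatin remodellers had 21 of 56 genes above 0 and a median of -0.22, with 1 higher and 9 lower without overlap, beside 7% and 6.82% of all genes. Smarcd2, a subunit of SWI/SNF complexes, had 339.9, 372.6 and 317.8 against 486.4, 824.7 and 773.7 (-0.98 ± 0.30), although both further probe sets had the opposite sign. The chromodomain helicases Chd6 (-0.80 ± 0.33) and Chd8 (-0.75 ± 0.43) also had no overlap. Both lists kept a negative median in all 17 alternative settings, and in controls their medians were -0.33 and -0.31. The members called in controls went the other way, with 2 immediate early genes and 1 gene of the chromatin list higher. In both lists 0 were called lower, where 1.36% of all probe sets were called higher and 0.248% lower.

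Glutamate receptor genes of the ionotropic kind had a median of -0.36 over 10 genes, and 0.08 in the fit with the 18S level. Without overlap 0 were higher and 0 lower, beside 7% and 6.82% of all genes. Voltage-gated and potassium channels had a median of 0.00, with 35 of 69 genes above 0. Kcnk1, a background potassium channel, had 464.8, 484.4 and 427.3 at 90 days against 308.1, 302.6 and 160.3 at 60 days (0.90 ± 0.32), and Kcna1, an axonal potassium channel, 643.8, 872.6 and 862 against 531.5, 363.6 and 436.4 (0.84 ± 0.31). The 2 channels had no overlap between the ages. Synaptic vesicle and SNARE genes had a median of 0.10 with members far on both sides, among them Cplx2, complexin 2 (2.16 ± 0.88), and Napg, a disassembly factor of SNARE complexes (0.96 ± 0.40), above 0 and Syt3 (-2.52 ± 0.97) and Rab3b (-1.71 ± 0.67) below it. Of these 4, Napg and Rab3b had no overlap. Cytosolic ribosomal proteins had a median of 0.14, with 10 higher and 1 lower without overlap (beside 7% and 6.82% of all genes) among 43 genes. Of those, Rpl6 had 1528, 997.5 and 1100.4 against 732.8, 634.8 and 608.1 (0.86 ± 0.30), and Rps3 (0.78 ± 0.31), Rpl8 (1.15 ± 0.47) and Rplp0 (1.29 ± 0.60) also had no overlap. With the 18S level in the fit Rpl8 had 0.13.

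Genes of axon injury and regeneration had a median of -0.01, and of 0.29 and 0.14 under the scaling alternatives. Gal, the peptide galanin, had signals of 121.1, 80.3 and 106.3 at 90 days against 48.2, 28.3 and 70.5 at 60 days (1.14 ± 0.55, without overlap). The 23 tested cell death genes of the BCL2 and caspase families had a median of -0.13, with 0 higher and 3 lower without overlap, beside 7% and 6.82% of all genes, and their median was 0.02 when arrays were centred. Apaf1, the scaffold of the apoptosome, had 5.3, 21.3 and 23.7 against 42, 61.8 and 72.6 (-2.05 ± 1.05), and Bbc3, the BH3-only protein PUMA, 70, 18.5 and 45.1 against 72.7, 93.5 and 131.4 (-1.31 ± 0.83). The signals of both genes are low. Neurotrophic factor receptors had a median of -0.04, and of 0.06 and 0.11 under the scaling alternatives, with Cntfr, the receptor of ciliary neurotrophic factor, at 87.9, 115.9 and 152.4 against 176.2, 187.4 and 296.8 (-0.89 ± 0.34, without overlap). Of the axon guidance receptors Epha4 had 20.2, 12.1 and 19.4 against 21.4, 56.8 and 105.8 (-1.59 ± 0.74). Among cell cycle genes Rrm1, of ribonucleotide reductase, had 2.17 ± 0.66 and Pcna, the sliding clamp of DNA polymerase, 1.2 ± 0.65, which was -0.30 with the 18S level. Med1, of the mediator complex, had -0.97 ± 0.36.

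The summed signals of the markers of other cells of the spinal cord overlapped between the ages. Such sums of linear signals weigh the strongest members most. On replicate 1 of 90 days Mbp gave 3921.6 of the oligodendrocyte sum of 6736.3. Overlap of a sum therefore says little about its weaker members. The 18 tested microglial and macrophage markers had a median of -0.03, and of 0.09 and 0.12 under the scaling alternatives, 0.38 with the 18S level in the fit and -0.29 without replicate 1 of 60 days. Their summed signal was 2248 to 4589 at 90 days and 2703 to 3728 at 60 days. Tyrobp, a signalling adaptor of microglia, had 33.6, 127.4 and 90.8 at 90 days against 105.9, 159.1 and 126 at 60 days (-0.82 ± 0.58). Trem2, its receptor partner, was low at both ages, with 9.7, 14.6 and 10.5 against 32.1, 27.1 and 18.6 (-1.15 ± 0.89). Trem2 was below all younger animals on each array of 90 days, and Tyrobp overlapped.

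The 14 tested astrocyte markers had a median of 0.25, which was 0.51 without replicate 1 of 60 days and -0.51 with the 18S level in the fit, with a summed signal of 5352 to 6807 at 90 days and 5709 to 7014 at 60 days. Gfap, the intermediate filament of astrocytes, had 64.3, 90.2 and 110.7 at 90 days against 79.8, 21.6 and 90.3 at 60 days (0.68 ± 0.57), and its difference was 0.02 without replicate 2 of 60 days. The other probe set of Gfap had the opposite sign. S100b had 1708.9, 991.5 and 1567.2 against 967.8, 744.3 and 358.6 (1.12 ± 0.40, without overlap, and 0.24 with the 18S level), and the bicarbonate transporter Slc4a4 -1.62 ± 0.59 with overlap. Of 2 further probe sets for Slc4a4, 1 had the opposite sign. Oligodendrocyte markers had a median of -0.19, and of 0.14 without replicate 1 of 60 days and -0.62 with the 18S level in the fit, with Mbp at -0.19 ± 0.38, whose sign turned with the 18S level (0.11), Mag at 1.16 ± 0.74 and Mog at -1.43 ± 0.87. Their summed signal was 6736 to 11689 at 90 days and 9125 to 11677 at 60 days, and 2 of 7 further probe sets of Mbp had the opposite sign.

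Endothelial and mural markers had a median of -0.40 in G93A and -1.08 in controls. In G93A their summed signal was 2311 to 2648 at 90 days and 2462 to 3110 at 60 days. Abcb1a, an efflux pump of the blood-brain barrier, had 51, 63 and 46.7 at 90 days against 121.7, 76.7 and 121.4 at 60 days (-0.97 ± 0.42). Acta2, smooth muscle actin, had 171.2, 184.8 and 233.4 against 352.4, 233.9 and 337.4 (-0.64 ± 0.40), with a margin of less than 1 signal unit between the ages. Itm2a had the opposite sign (1.06 ± 0.37). Interneuron markers had 10 of 12 genes above 0 and a median of 0.36, which was -0.11 without replicate 2 of 60 days and 0.87 without replicate 1, with a summed signal of 1949 to 2051 at 90 days and 946 to 2945 at 60 days. Slc6a5, the glycine transporter, had 1.59 ± 0.67 and Gad2, a GABA-synthesizing enzyme, -1.13 ± 0.44. The part of these other cell types in the differences of the larger lists was not tested.

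The age step was then read in controls, which share no array with the G93A groups. Of the 704 genes with all G93A values of 90 days above those of 60 days, 74.0% had a positive difference in controls, against 45.8% of all 10051 genes, and their median control difference was 0.51. Of the 685 genes with all values below, 70.7% had a negative difference in controls, against 54.2% of all genes, with a median of -0.38. Across the 10051 genes the 2 age steps had a Pearson r of 0.25 and a Spearman rho of 0.26, which describes genes and not replicates. The 18S level was lower at 90 days in both genotypes, and with it in the fit the shares were 69.6% against 49.1% and 61.8% against 50.9%. In that fit 330 probe sets had an unadjusted p below 0.05 for the G93A step, compared with 909 without it. With the hybridization-control level in the fit the shares were 69.2% against 49.1% and 61.3% against 50.9%. In both of these fits only the control step was refitted, and the 704 and 685 genes were still those chosen from the unadjusted G93A values. The shares therefore cannot tell what the 2 steps have in common once a covariate is in the fit for both genotypes.

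Called genes in controls were placed beside their G93A values. Controls had 34 called higher among the 704 and 0 called lower, and 2 called higher and 6 called lower among the 685. These are 4.83% of the 704 and 1.17% of the 685, where 1.52% of all 10051 genes were called, 132 higher and 21 lower. The test of the difference between the age steps, G93A minus control, had 0 of 16565 probe sets (0%) with an adjusted p below 0.05 by limma and 886 with an unadjusted p below 0.05 (355 positive, 531 negative). The median standard error of that difference was 0.98, larger than that of 1 age step. The smallest p belonged to Ephb3, a receptor of ephrin-B ligands, with signals of 95.8, 56.3 and 62.2 in G93A at 90 days against 104.8, 118.6 and 147.6 in G93A at 60 days. In controls Ephb3 had 124.6, 108.5 and 202.2 at 90 days against 19.8, 24 and 21.4 at 60 days, and the age steps were -0.82 ± 0.45 in G93A and 2.69 ± 0.45 in controls, with a difference of -3.51 ± 0.64 (limma adjusted p = 0.0988). The low values lay on the control arrays of 60 days.

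Of the other 9 genes that the rule named for this difference, 6 had a small step in G93A and a larger one in controls. Wdr55 had 0.04 ± 0.54 in G93A and -2.94 ± 0.54 in controls (the control step with limma adjusted p = 0.00765), Zmiz2 had 0.23 ± 0.69 in G93A and -3.48 ± 0.69 in controls, and Deptor, an inhibitor of mTOR, had -0.17 ± 0.35 in G93A and -1.90 ± 0.35 in controls. On the other side Selenoh, a nucleolar selenoprotein, had 0.26 ± 0.44 in G93A and 2.70 ± 0.44 in controls, Pim3, a serine/threonine kinase, had -0.43 ± 0.28 in G93A and 1.29 ± 0.28 in controls, and Etnk1, ethanolamine kinase, had 0.73 ± 0.61 in G93A and 4.34 ± 0.61 in controls. In these 6 genes the control step passed the test, while the difference between the steps had adjusted p from 0.607 to 0.733 by limma and did not. The genes were chosen by that difference, which holds the same control arrays, so the choice itself favours a large control step. For the G93A step, both further probe sets of Deptor and 1 of 2 of Etnk1 had the opposite sign. Steps of opposite sign were seen for Myh7, the slow myosin heavy chain (2.21 ± 0.79 in G93A and -2.54 ± 0.79 in controls), Zbp1, a sensor of Z-form nucleic acids (1.95 ± 1.10 in G93A and -3.81 ± 1.10 in controls, with low signals), and Meg3, a maternally expressed long noncoding RNA. Meg3 had 217.3, 336.1 and 318.2 in G93A at 90 days against 450.3, 1142.3 and 469.9 in G93A at 60 days, and 665.3, 402.8 and 173.8 in controls at 90 days against 161.6, 99.3 and 173.6 in controls at 60 days (-1.13 ± 0.42 in G93A and 1.35 ± 0.42 in controls).

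The later interval, 90 to 120 days in G93A, shares the arrays of 90 days with the step described above. A value that is by chance high at 90 days enters both with opposite signs, so the 2 differences are given side by side and no relation is drawn between them. For genes named by their values at 90 days, that choice favours a later difference of opposite sign. The p-values of the later interval do not account for it. The mean log2 level of Mrps14 was 7.85 at 60 days, 9.78 at 90 days and, at the last age, 7.16, and its later difference was -2.62 ± 0.41 (limma adjusted p = 0.000605). Nkiras1 had -2.48 ± 0.39 (limma adjusted p = 0.000605), Acyp1 -2.72 ± 0.38 (limma adjusted p = 0.000263), Pfkp -1.42 ± 0.29 (limma adjusted p = 0.00426) and Mdh1 -3.17 ± 0.51 (limma adjusted p = 0.000804). These 5 genes were called lower in the later interval, but they were named for high values at 90 days. Among the filaments, Nefh fell by 2.22 ± 0.41 (limma adjusted p = 0.00198) and Prph by 1.64 ± 0.42 (limma adjusted p = 0.0174) on the log2 scale. Mean log2 levels of controls at 90 and 120 days were 8.597 and 8.662 for Mrps14, 9.852 and 9.292 for Nkiras1, and 7.65 and 6.784 for Acyp1. They were 9.255 and 8.595 for Pfkp, 8.932 and 8.037 for Mdh1, 10.915 and 10.452 for Nefh, and 8.595 and 8.053 for Prph.

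In the other direction, Cnot3 rose by 3.36 ± 0.64 (limma adjusted p = 0.00213) between 90 and 120 days, Camkk2 by 2.26 ± 0.38 (limma adjusted p = 0.000934), Reep3 by 5.17 ± 0.90 (limma adjusted p = 0.00126) and Jarid2 by 1.46 ± 0.33 (limma adjusted p = 0.00731). They were named for low values at 90 days, which favours a rise, and these p-values do not account for that choice. Of the proteasome subunits 10 were called lower and 1 higher in the later interval, where 4.30% and 3.34% of all probe sets were, with a median of -0.89. Of the TCA cycle list 6 were called lower and 1 higher, with a median of -1.03. Among glial and metallothionein genes, Tyrobp rose by 3.76 ± 0.58 (limma adjusted p = 0.000601), Gfap by 2.61 ± 0.57 (limma adjusted p = 0.00581) and Mt1 by 3.34 ± 0.36 (limma adjusted p = 1.1e-05), where their differences between 90 and 60 days were -0.82, 0.68 and -0.29 and had not passed the test. Mean log2 levels of controls at 90 and 120 days were 4.757 and 7.441 for Tyrobp, 5.703 and 6.792 for Gfap, and 7.994 and 10.242 for Camkk2. They were 6.732 and 8.148 for Reep3, 6.033 and 5.994 for Cnot3, and 6.877 and 6.798 for Jarid2. The control difference from 90 to 120 days was not tested, so these rises are not shown to be particular to the mutant. The hybridization-control level differed between these ages too, with 11.34 to 11.99 at 120 days and 8.96 to 9.33 at 90 days, and with it in the fit 18 probe sets were called for the later interval, compared with 1267 without it. Without replicate 1 or 3 of 90 days or replicate 1 or 2 of 120 days there were 548, 582, 749 and 821 calls. The part of the hybridization level in the calls of single genes was not tested.

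**Figure D4:**
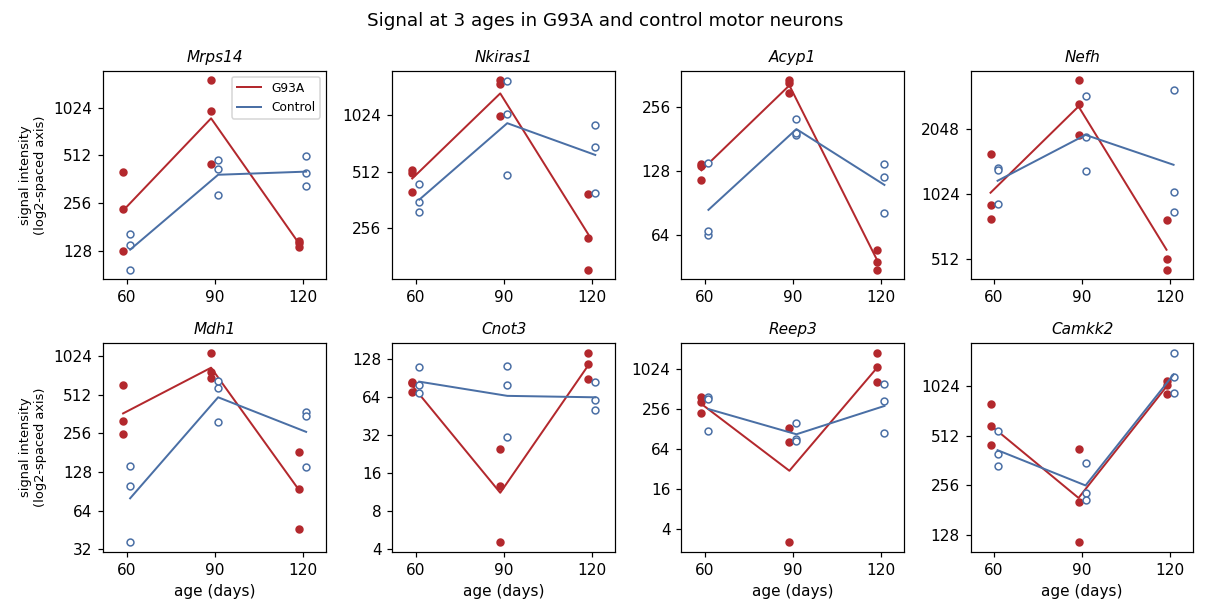
Signals of 8 genes on each array at 60, 90 and 120 days (log2-spaced axis) in G93A motor neurons (filled) and controls (open), with lines through the geometric means. In G93A, Mrps14 was at 128.5 to 405.1 at 60 days, 454.6 to 1523.9 at 90 days and 136.1 to 148 at 120 days, while Cnot3 was at 70.1 to 84.2, 4.5 to 24.6 and 88.4 to 143.9.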

How the data were processed

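Transcripts of laser-captured motor neurons were measured on one-colour oligonucleotide microarrays. The deposited value of a probe set is a signal intensity on a linear scale, which the authors computed with MAS5, per the submitters' processing notes, whose version and settings the sources used here do not give. Each array's mean is about 100 once the highest and lowest 2% are trimmed, and arrays have no counts, so their number limits the precision. Values under 1 were set to 1 and log2 was taken. Probe sets above their array's median in at least 3 of 18 arrays were tested, without control probe sets, which left 16565 of 22690. limma 3.58.1 in R 4.3.3 fitted the 6 group means (12 residual degrees of freedom) with a trend in the prior variance, tests were two-sided, with Benjamini-Hochberg adjustment over all probe sets tested. Errors after ± are standard errors of log2 differences unless marked SD. P-values measure the spread between animals as labelled.

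Of the probe sets, 20380 carry 1 gene symbol, 691 several and 1555 none in the platform annotation, and the probe set of highest mean signal among those tested stands for its gene. The hybridization-control level is the mean over 18 probe sets. The named genes are the 15 per direction of smallest p with a 1.5-fold difference and no overlap, 5 per direction for the difference of the age steps, up to 4 members per list, and Sod1, Prph, Nefl, Nefm, Nefh, Gfap, Mbp, Tyrobp and Gapdh. Calcb, Csf1r, Isl2, Mnx1, Slc18a3 and Slc5a7 are named as cell type markers. The members and lists were chosen with earlier results of these data known, and lists share some genes. The limma fit was tested on simulated data.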

Additional observations from a re-analysis of the deposited data

How the results depend on the processing

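The count of 0 called probe sets for G93A at 90 against 60 days was found under all 17 alternative settings, with 330 (18S rRNA level in the fit) to 1434 (only the arrays compared) at an unadjusted p below 0.05 and a lowest adjusted p of 0.084, without replicate 2 of 90 days. Leaving out an array gave 0 in each case. For the difference between the age steps, quantile normalization gave 1 call, a probe set with no symbol, and leaving out an array 0 to 1, namely Elavl2 (-6.67) without Control 60 days replicate 1 and Dhcr7 (-3.73) without Control 60 days replicate 2, both named after their values were seen. The control step had 28 calls without a trend in the variance, 117 with only the arrays compared, 32 with the hybridization-control level and 13 with the 18S level in the fit, and 26 to 332 when an array was left out, and G93A at 120 against 90 days had 612 without a trend, 18 with the hybridization-control level and 548 to 1054 when an array was left out. Fewer arrays enter some of these fits, and otherwise the cause was not tested.

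Nefl turned to 0.23 (quantile normalization), 0.11 (median centring), 0.15 (hybridization-control level), 0.14 (Gapdh ratio) and 0.67 (18S level), and ranged from -0.50 to 0.21 when an array was left out. Nefm ranged from -0.13 to 0.70 and Mbp from -0.41 to 0.07 in the same way. With the 18S level in the fit Mbp had 0.11, Ldha -0.10, Gfra1 0.08, Pcna -0.30 and Mt2 0.04, and the cause was not tested. Of the comparisons of named genes with their main value, 2001 kept direction and side of the threshold and 16 turned sign. These genes were chosen from the same data, some of them for ages without overlap. The count therefore does not measure how stable the differences are. No named gene was called for the G93A step in any fit, so the side of the threshold was always the same. Of the list medians under the alternatives, 727 moved by less than 1 SD between the arrays of a group and 89 by more. Median centring moved the median of all genes to 0.10, compared with -0.04, and quantile normalization to 0.01. The labels do not say whether replicate numbers pair animals, deviations of same-numbered arrays correlated at -0.05 to 0.02, and the arrays were not treated as pairs. The replicate block gave 0 calls for the G93A step, 0 for the difference, 260 for controls and 1219 for 120 against 90 days. The fit with the 18S level, those for 120 against 90 days and those for the shares of genes seen in controls were added after seeing the data. With 3 arrays a group, no difference of the G93A step passed the test, also not those of several log2 units at low signals such as Mrps5 (-4.37).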
